A study of Rattus norvegicus with 16 samples.

Results

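The small leucine-rich proteoglycans described here are biglycan (Bgn), decorin (Dcn), asporin (Aspn), lumican (Lum), fibromodulin (Fmod), prolargin (Prelp), keratocan (Kera), osteomodulin (Omd) and osteoglycin (Ogn), 9 of the 31141 genes measured. The members were chosen by name as a gene family, and the family was picked with earlier results of these data known. The table carries 8 of them under their own symbols. The osteoglycin row has the placeholder symbol NEWGENE_1308171 (ENSRNOG00000029792) and was found through the table's own gene description. Each was measured by RNA sequencing of tibialis anterior, a fast muscle of the shin, in 16 libraries from Wistar-Imamichi rats. The groups are DMD_KD, 6 libraries from Dmd-mutant rats fed a diet labelled MCTKD, DMD_ND, 6 libraries from Dmd-mutant rats given normal diet, and WT_ND, 4 libraries from wild-type rats given that same normal diet. Diets were given from weaning until the rats were 9 months old. MCTKD is not spelled out in the labels; in nutrition research the letters commonly stand for a medium-chain triglyceride ketogenic diet. Dmd encodes dystrophin, the protein whose loss causes Duchenne muscular dystrophy; the labels do not describe the mutant allele. Wild-type rats on the MCTKD diet are not among the groups, so a diet difference was measured in Dmd-mutant muscle alone.

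Small leucine-rich proteoglycans are secreted matrix proteins whose curved core of leucine-rich repeats sits on collagen fibrils and sets how thick and how closely packed the fibrils become. Many carry sugar chains, chondroitin or dermatan sulfate on decorin and biglycan and keratan sulfate on lumican, fibromodulin and keratocan. In skeletal muscle they lie in the connective tissue around fibres and fascicles and are made largely by fibroblasts. Decorin and biglycan also bind the growth factor TGF-beta and cell-surface receptors, and the family is commonly read as part of the fibrotic matrix of dystrophic muscle. Bgn, Dcn and Aspn are grouped as class I, Lum, Fmod, Prelp, Kera and Omd as class II, and Ogn as class III.

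All but Bgn lie in 3 short stretches of the genome beside other family members, at positions given by the deposited table in mRatBN7.2. On chromosome 7, Dcn (ENSRNOG00000004554, chr7:32281252-32321270), Lum (ENSRNOG00000004610, chr7:32358614-32365793) and Kera (ENSRNOG00000004635, chr7:32397382-32404837) follow each other on the plus strand. On chromosome 17, Ogn (chr17:15032069-15052739), Omd (ENSRNOG00000039560, chr17:15060217-15068441) and Aspn (ENSRNOG00000015410, chr17:15080639-15104041) follow each other on the minus strand. On chromosome 13, Prelp (ENSRNOG00000003120, chr13:45370533-45380270) is on the minus strand and Fmod (ENSRNOG00000003183, chr13:45493517-45504133) on the plus strand. Bgn (ENSRNOG00000055962) is alone at chrX:151197273-151209461 on the plus strand. The 3 chromosome 17 members lie within the span of Cenpp, a centromere protein gene on the opposite strand (chr17:15014058-15189304). The sources used here do not give the strand setting of the counting, so any opposite-strand reads within the rows of these 3 could not be told apart. Cenpp itself averaged 1.14 FPKM in DMD_KD, 1.32 in DMD_ND and 0.567 in WT_ND libraries. Its own row held 6 to 61 reads per library, beside up to 7296 for Ogn, 1438 for Aspn and 129 for Omd.

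The windows around the transcription start of 4 members are shown because they belong to the 2 pairs whose levels ran closest across libraries, Ogn with Aspn and Fmod with Kera, as described further on. Each runs 300 bases, 250 before to 50 after the start as RefSeq annotates it in GRCr8, and is written 5′ to 3′ on the gene's strand, and its coordinates are in that build, not in that of the deposited table. Capitals mark the matches found on either strand to any of 6 short motifs, the TATA box (TATAAA), the GC box (GGGCGG), the CCAAT box (CCAAT), AP-1 (TGANTCA), TEAD (GGAATG) and the SMAD element (CAGACA).
Ogn (chr17:15258946-15259245, minus strand): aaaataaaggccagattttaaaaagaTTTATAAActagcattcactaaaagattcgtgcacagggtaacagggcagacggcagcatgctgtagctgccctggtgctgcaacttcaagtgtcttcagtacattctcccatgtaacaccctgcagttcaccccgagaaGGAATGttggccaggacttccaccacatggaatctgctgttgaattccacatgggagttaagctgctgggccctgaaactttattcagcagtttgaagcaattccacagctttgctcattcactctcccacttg
Aspn (chr17:15310420-15310719, minus strand): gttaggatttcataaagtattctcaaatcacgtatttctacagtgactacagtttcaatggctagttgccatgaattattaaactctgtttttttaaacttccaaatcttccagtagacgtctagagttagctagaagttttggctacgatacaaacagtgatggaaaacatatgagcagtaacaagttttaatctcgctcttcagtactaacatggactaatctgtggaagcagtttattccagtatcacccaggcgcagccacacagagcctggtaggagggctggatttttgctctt
Fmod (chr13:48045317-48045616, plus strand): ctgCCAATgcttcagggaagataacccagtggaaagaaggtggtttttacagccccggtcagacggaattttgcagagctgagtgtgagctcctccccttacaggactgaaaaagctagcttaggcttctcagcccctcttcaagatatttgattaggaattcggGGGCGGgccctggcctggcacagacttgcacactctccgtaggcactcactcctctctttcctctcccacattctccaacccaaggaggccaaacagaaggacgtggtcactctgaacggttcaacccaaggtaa
Kera (chr7:34283850-34284149, plus strand): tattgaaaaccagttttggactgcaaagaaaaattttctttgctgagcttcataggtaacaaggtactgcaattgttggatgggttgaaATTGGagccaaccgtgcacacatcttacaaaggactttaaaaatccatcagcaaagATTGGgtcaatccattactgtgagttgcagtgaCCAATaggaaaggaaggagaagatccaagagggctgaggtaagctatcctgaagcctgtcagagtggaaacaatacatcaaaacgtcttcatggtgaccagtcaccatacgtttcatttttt
RefSeq windows were at hand for 6 of the 9 members, these 4 plus Lum and Omd. The Ogn window holds a pair of overlapping TATA box matches, read on opposite strands and beginning at -224 and -222 from the start, and a TEAD match at -84. A GC box match at -85 and a CCAAT match at -247 lie in the Fmod window. Kera has 3 CCAAT matches, at -161, -105 and -72, and Lum has 1, at -130. No motif of the 6 was matched in Aspn or Omd, and neither AP-1 nor the SMAD element was matched in any of the 6 windows. Over all 33469 windows of the RefSeq table the share with a match was 37.5% for the CCAAT box, 33.1% for the GC box, 21.1% for the SMAD element, 14.2% for the TATA box, 14.2% for TEAD and 7.33% for AP-1. Fmod and Kera both held a CCAAT match, and Ogn and Aspn shared no matched motif.

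Libraries held between 17125084 and 28116085 reads assigned to genes. Values are FPKM, read counts scaled to gene length and library size, as deposited. No mutant library reached the Dmd level of any wild-type library, with 0.546 to 2.04 FPKM in DMD_KD and 1.37 to 1.98 in DMD_ND against 4.13 to 11.9 in WT_ND. DMD_KD replicate 3 stood apart on the second principal component of all tested genes, at -57.5. In that library the summed level of 7 skeletal muscle genes was 84880 FPKM, against 27240 to 40300 in the other DMD_KD libraries. WT_ND split into pairs on that component, replicates 1 and 4 at -14 and -18.8 and replicates 3 and 9 at 30.1 and 25.3. The muscle gene sums were 101100 and 98720 FPKM in replicates 1 and 4 and 55080 and 54840 FPKM in replicates 3 and 9. The members moved with this split in both directions, Dcn, Aspn, Lum, Omd and Ogn being lower and Bgn and Prelp higher in replicates 1 and 4 than in replicates 3 and 9. Weights estimated per library were 0.283 and 0.238 for WT_ND replicates 1 and 4 and lowest, at 0.129, for DMD_KD replicate 3. With them, 9 members were called for DMD_ND against WT_ND, 0 for DMD_KD against DMD_ND and 7 for DMD_KD against WT_ND, as without weights. Over all 12119 tested genes the weights gave 8502, 93 and 7783 calls, beside 7967, 1 and 7068 without them. The weighted log2 fold changes of DMD_ND over WT_ND were smaller for Ogn (2.62), Aspn (2.605), Dcn (1.95), Lum, Kera and Omd. They were larger for Bgn, Prelp and Fmod. The labels do not say that libraries came from separate animals, and p-values therefore reflect only how far these samples spread, which may be partly technical.

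Genotype was asked about first, by setting DMD_ND against WT_ND on the same diet. All 9 members rose in Dmd-mutant muscle, Bgn and Lum most and Omd least. A gene was called where the Benjamini-Hochberg adjusted p of limma over the 12119 tested genes was under 0.05; all 9 members were tested and called higher, where 31.5% of the tested genes were called higher and 65.7% called either way. The members' median log2 fold change was 2.57, beside -0.04 over all tested genes. Fold changes were taken on log2(FPKM + 1), so those of genes near 0, such as Kera and Omd, come out smaller than the ratio of their FPKM. Only 2 WT_ND libraries reached 1 FPKM for Aspn, 2 for Kera and 1 for Omd, so these 3 entered the test through the mutant groups. Every DMD_ND library lay above every WT_ND library for 7 members, an order found for 26.8% of the tested genes. Scaled to an equal total per library instead (TPM), the median of all tested genes shifted by 0.86 on the log2 scale and calls split into 8564 higher and 720 lower, beside 3815 higher and 4152 lower as deposited; all 9 members stayed called higher and above that median. In bulk muscle, fewer or more cells of a type and less or more RNA per cell cannot be told apart.

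**Figure D1:**
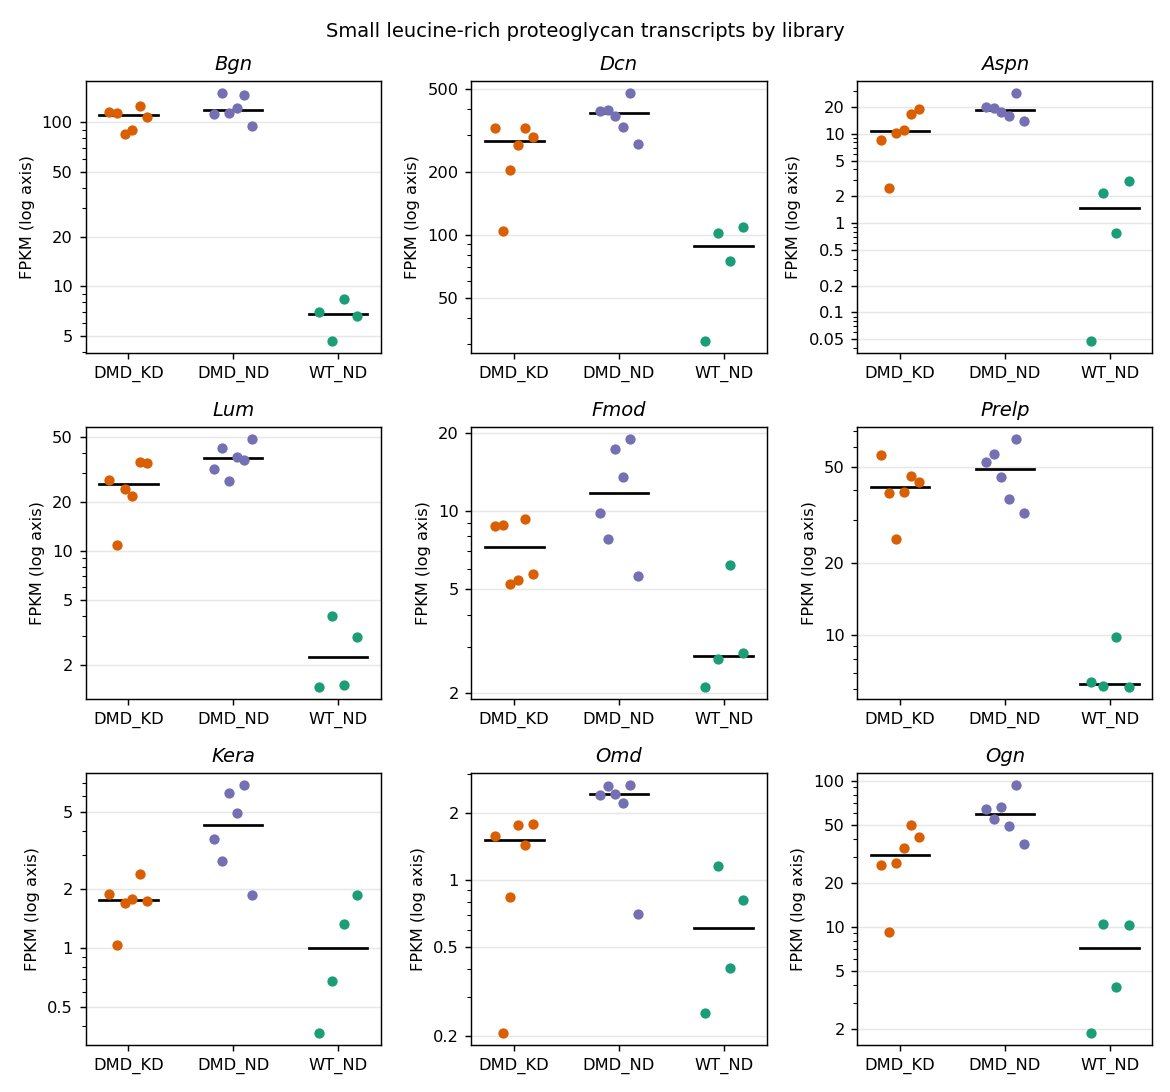
Level of each member in FPKM (log axis, a scale of its own in each panel) for 6 DMD_KD, 6 DMD_ND and 4 WT_ND libraries, each point 1 library and each bar the group median. Bgn, Lum and Prelp show both mutant groups clear of WT_ND, whereas Dcn, Aspn, Fmod, Kera, Omd and Ogn in DMD_KD reach down among the WT_ND points.

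In class I, Bgn encodes a proteoglycan of the cell-near matrix that binds parts of the dystrophin-associated complex and also signals through Toll-like receptors. Its lowest, median and highest levels were 85.6, 110.6 and 125.9 FPKM in DMD_KD and 95.8, 118.6 and 150.4 FPKM in DMD_ND, while the 4 WT_ND libraries had 6.96, 4.64, 8.35 and 6.62 FPKM. The mutant groups overlapped in part, with 2 DMD_KD libraries under the whole DMD_ND range, and every mutant library lay far above the highest WT_ND library. The log2 fold change in DMD_ND relative to WT_ND was 4.03 (SE 0.162, adjusted p = 1.48e-11 by limma), rank 29 of the 12119 tested genes.

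Dcn, the most abundant member, encodes the proteoglycan that coats fibrils of type I collagen and holds TGF-beta in the matrix. Its lowest, median and highest levels were 104.3, 280.8 and 326.9 FPKM in DMD_KD and 273.6, 382.0 and 476.7 FPKM in DMD_ND, against 31.01, 102.6, 75.2 and 108.6 FPKM in WT_ND. DMD_ND stayed clear of WT_ND, and the lowest DMD_KD library, replicate 3, fell within the WT_ND range. The rise of DMD_ND over WT_ND was 2.35 on the log2 scale (SE 0.338, limma adjusted p = 1.14e-05).

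Aspn encodes a class I relative without sugar chains that binds collagen and restrains TGF-beta signalling in cartilage. Lowest, median and highest libraries had 2.46, 10.6 and 18.9 FPKM in DMD_KD and 13.8, 18.5 and 28.2 FPKM in DMD_ND, whereas the WT_ND libraries had 0.0480, 2.16, 0.765 and 2.94 FPKM. WT_ND replicate 1 held 1 Aspn read, and all DMD_ND libraries lay above all WT_ND libraries. The log2 fold change of DMD_ND over WT_ND was 3.16 (SE 0.413, limma adjusted p = 3.91e-06).

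Among class II genes, Lum encodes a keratan sulfate proteoglycan that spaces collagen fibrils and is best known from the cornea. DMD_KD libraries had a lowest, median and highest Lum level of 10.9, 25.6 and 35.0 FPKM and DMD_ND libraries of 26.6, 36.8 and 48.25 FPKM, against 1.48, 3.99, 1.52 and 2.97 FPKM in WT_ND. Both mutant groups were clear of WT_ND. DMD_ND exceeded WT_ND by 3.49 on the log2 scale (SE 0.276, limma adjusted p = 1.38e-08).

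Prelp encodes a basic protein that ties basement membranes to the collagen beneath them. Its lowest, median and highest levels in DMD_KD were 25.0, 41.1 and 55.8 FPKM and in DMD_ND 32.0, 48.8 and 64.9 FPKM, against 6.385, 6.15, 9.815 and 6.12 FPKM in WT_ND. Both mutant groups again lay above every WT_ND library, of which replicate 4 was the highest. The log2 fold change of DMD_ND over WT_ND was 2.57 (SE 0.215, limma adjusted p = 2.57e-08).

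Fmod encodes a collagen-binding proteoglycan that is abundant in tendon and guides fibril assembly and cross-linking. It was measured at a lowest, median and highest level of 5.25, 7.25 and 9.34 FPKM in DMD_KD and 5.62, 11.7 and 18.9 FPKM in DMD_ND, against 2.11, 2.71, 6.19 and 2.84 FPKM in WT_ND. WT_ND replicate 4 overlapped both mutant groups, and 5 of 6 DMD_ND libraries lay above it. DMD_ND exceeded WT_ND by 1.53 on the log2 scale (SE 0.294, limma adjusted p = 0.000208).

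Kera, a keratan sulfate proteoglycan of the cornea that tendon cells also make, was far lower in level. The lowest, median and highest libraries had 1.04, 1.77 and 2.39 FPKM in DMD_KD and 1.88, 4.27 and 6.84 FPKM in DMD_ND, against 0.371, 0.678, 1.33 and 1.87 FPKM in WT_ND. DMD_ND replicate 11, at 1.876 FPKM, and WT_ND replicate 9, at 1.871 FPKM, all but met. The rise of DMD_ND over WT_ND was 1.36 on the log2 scale (SE 0.257, limma adjusted p = 0.000189).

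Omd, known as a keratan sulfate proteoglycan of bone, was the least abundant member, resting on 6 to 92 reads per DMD_KD library, 32 to 129 per DMD_ND library and 5 to 39 per WT_ND library. In FPKM the lowest, median and highest libraries were at 0.207, 1.52 and 1.79 in DMD_KD and 0.706, 2.43 and 2.67 in DMD_ND, against 0.253, 1.16, 0.404 and 0.819 in WT_ND. DMD_KD replicates 3 and 5 and DMD_ND replicate 11 fell below the highest WT_ND library. DMD_ND exceeded WT_ND by 0.93 on the log2 scale (SE 0.251, limma adjusted p = 0.0036).

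Ogn, the class III member, encodes a collagen-binding protein first described in bone that is also found in tendon and muscle connective tissue. Lowest, median and highest levels were 9.215, 31 and 49.7 FPKM in DMD_KD and 36.9, 59.2 and 93.5 FPKM in DMD_ND, against 1.88, 10.5, 3.85 and 10.3 FPKM in WT_ND. DMD_ND lay above WT_ND throughout, and DMD_KD replicate 3 was lower than the highest 2 WT_ND libraries. The log2 fold change of DMD_ND over WT_ND was 3.18 (SE 0.425, limma adjusted p = 5.06e-06).

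**Figure D2:**
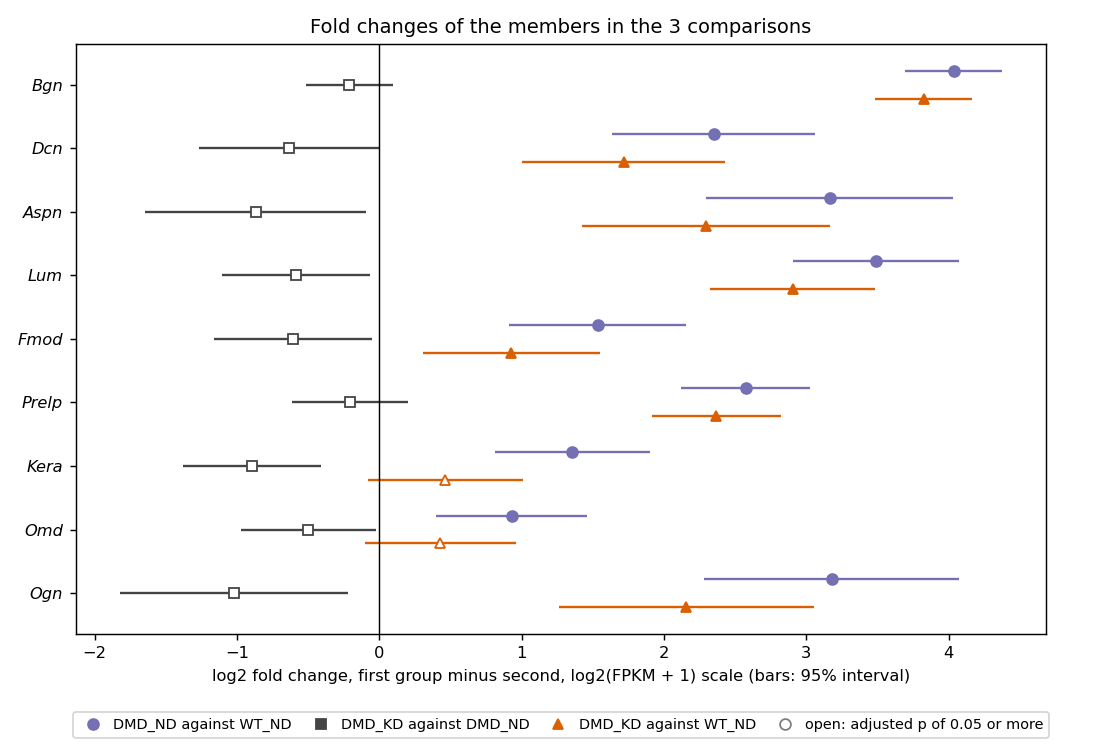
Log2 fold change of each member on the log2(FPKM + 1) scale with its 95% interval, for DMD_ND against WT_ND (circles), DMD_KD against DMD_ND (squares) and DMD_KD against WT_ND (triangles). Filled symbols are called at an adjusted p under 0.05; all 9 circles and 7 triangles are filled, and every square is open and left of 0.

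The diet was asked about by setting DMD_KD against DMD_ND, both mutant. No member was called (limma, adjusted p under 0.05), in a comparison where 1 gene of 12119, or 0.00825%, was called at all. That count over all genes was 7 without DMD_KD replicate 9, 2 without DMD_ND replicate 7 and 93 with weights per library. The estimates of all 9 were negative, as were those of 51.1% of the tested genes, and their median log2 fold change was -0.61 beside -0.01 over all tested genes. At an unadjusted p under 0.05, limma counted 6 of the 9 members, where 14.3% of the tested genes passed and 7.6% passed downward; voom weights on the recovered reads gave 0 called members and 5 at that unadjusted level. That count of 6 was 3 without DMD_ND replicate 9, the highest DMD_ND library for 7 members, and also 3 without DMD_KD replicate 3. It was 4 to 7 without any other single library, 4 with a pseudocount of 0.1 and 8 under scaling to an equal total per library. Under that scaling the median log2 fold change of all tested genes moved to -0.24. The share of all tested genes passing at these other settings is not given here. In no member did a DMD_KD library exceed the highest DMD_ND library. That order was not counted over all tested genes, so it cannot be read as particular to the members.

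Ogn had the lowest estimate, with a DMD_KD mean of 31.5 ± 13.95 FPKM beside 60.6 ± 19.3 FPKM in DMD_ND (SD, n = 6 each) and 4 of 6 DMD_KD libraries under the whole DMD_ND range. The other 2 exceeded DMD_ND replicate 11, and the higher of them also replicate 7. Its log2 difference was -1.02 (95% interval -1.82 to -0.22, limma adjusted p = 0.259). Kera averaged 1.76 ± 0.432 FPKM in DMD_KD and 4.38 ± 1.96 FPKM in DMD_ND (SD, n = 6 each), again with 4 DMD_KD libraries under all of DMD_ND and the other 2 above DMD_ND replicate 11 alone. The log2 difference of Kera was -0.89 (95% interval -1.38 to -0.41, unadjusted p = 0.0012, limma adjusted p = 0.14). For Aspn the means were 11.3 ± 5.84 FPKM in DMD_KD and 19.1 ± 5.004 FPKM in DMD_ND (SD, n = 6 each), a log2 difference of -0.87 (95% interval -1.65 to -0.09, limma adjusted p = 0.305).

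These 3 were followed by a middle group. Dcn averaged 253.6 ± 85.7 FPKM in DMD_KD and 373.6 ± 68.4 FPKM in DMD_ND (SD, n = 6 each), a log2 difference of -0.63 (95% interval -1.27 to 0.0048, limma adjusted p = 0.352). Fmod, Lum and Omd had log2 differences of -0.61, -0.59 and -0.50, with intervals whose upper ends lay between -0.07 and -0.03. Their limma adjusted p-values were 0.314, 0.305 and 0.331.

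Bgn and Prelp were nearest to 0. Bgn averaged 106.4 ± 15.8 FPKM in DMD_KD and 123.8 ± 21.4 FPKM in DMD_ND (SD, n = 6 each), a log2 difference of -0.21 (95% interval -0.52 to 0.09, limma adjusted p = 0.472). Prelp averaged 41.3 ± 10.1 FPKM in DMD_KD and 47.9 ± 12.4 FPKM in DMD_ND (SD, n = 6 each), also a log2 difference of -0.21 (95% interval -0.61 to 0.20, limma adjusted p = 0.599).

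DMD_KD replicate 3 was the lowest DMD_KD library for 6 of the 9 members, Dcn, Aspn, Lum, Kera, Omd and Ogn. Without it the log2 differences of DMD_KD from DMD_ND were -0.72 for Ogn, -0.54 for Aspn, -0.40 for Dcn, -0.37 for Lum and -0.33 for Omd. Kera at -0.81, Fmod at -0.66, Bgn at -0.23 and Prelp at -0.20 moved less. All 9 stayed negative, none was called, and 3 members, Fmod, Kera and Ogn, had an unadjusted p under 0.05.

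**Figure D3:**
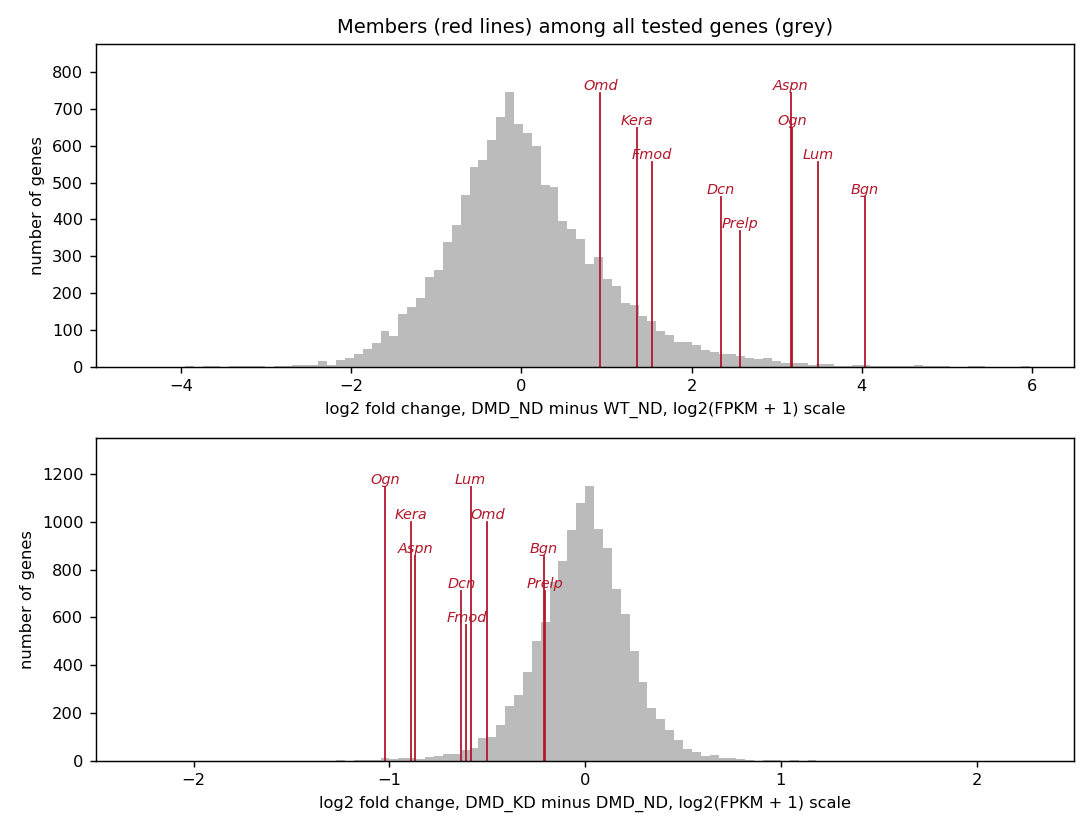
Number of tested genes (grey, 12119 genes) by log2 fold change, DMD_ND minus WT_ND above and DMD_KD minus DMD_ND below, with the 9 members as labelled red lines whose heights carry no value. In the upper panel all members lie right of 0, Omd nearest at 0.93 and Bgn farthest at 4.03; in the lower panel all lie left of 0, with Bgn and Prelp inside the bulk of genes.

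DMD_KD was also set against WT_ND. Of the 9 members, 7 were called higher in DMD_KD, where 27.3% of the tested genes were called higher and 58.3% either way. Log2 fold changes were 3.82 for Bgn (adjusted p = 4.36e-11 by limma), 2.90 for Lum, 2.37 for Prelp, 2.29 for Aspn, 2.16 for Ogn, 1.72 for Dcn and 0.93 for Fmod (limma adjusted p = 0.0123). Kera, at 0.46 (95% interval -0.08 to 1.01, limma adjusted p = 0.132), and Omd, at 0.43 (95% interval -0.10 to 0.96, limma adjusted p = 0.153), were not called. Every DMD_KD library lay above every WT_ND library for Bgn, Lum and Prelp, an order that 20.0% of the tested genes showed. Fmod lost its call without WT_ND replicate 1 (log2 fold change 0.78), and Omd gained one without DMD_KD replicate 3 (0.60). This comparison shares DMD_KD with the diet comparison and WT_ND with the genotype comparison, so the 3 are not independent.

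The order of the members by mean level was alike in the mutant groups. It was Dcn, Bgn, Prelp, Ogn, Lum, Aspn, Fmod, Kera, Omd in DMD_KD and Dcn, Bgn, Ogn, Prelp, Lum, Aspn, Fmod, Kera, Omd in DMD_ND, against Dcn, Prelp, Ogn, Bgn, Fmod, Lum, Aspn, Kera, Omd in WT_ND. Only a few neighbours in those orders had ranges that did not overlap, Bgn over Prelp and Fmod over Kera in DMD_KD, Dcn over Bgn and Bgn over Ogn in DMD_ND, and Dcn over Prelp in WT_ND. Lum was above Aspn within every library of all 3 groups although their ranges overlapped. FPKM is a level per length, so these orders set genes side by side on 1 scale.

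Summed over the 9 members, the level had a lowest, median and highest value of 289.9, 510.6 and 612.9 FPKM in DMD_KD and 508.6, 677.2 and 875.3 FPKM in DMD_ND, against a range of 50.5 to 143.2 FPKM and a median of 121.0 FPKM in WT_ND. Dcn made up 51.6 ± 7.83% of the sum in DMD_KD (SD, n = 6), 54.8 ± 1.32% in DMD_ND (n = 6) and 70.9 ± 6.93% in WT_ND (n = 4). Bgn made up 23.5 ± 7.82% in DMD_KD, 18.3 ± 1.80% in DMD_ND and 7.41 ± 4.63% in WT_ND. The ratio of Bgn to Dcn FPKM was 0.334 to 1.09 in DMD_KD (median 0.376) and 0.285 to 0.38 in DMD_ND (median 0.33), against 0.0453 to 0.225 in WT_ND (median 0.086). Every mutant library thus had more Bgn per Dcn than every WT_ND library, an order that was not counted over other gene pairs. Within WT_ND the ratio was 0.225 and 0.111 in replicates 1 and 4, which had the higher muscle gene sums. It was 0.0453 and 0.0609 in replicates 3 and 9. The ratio of 1.09 belonged to DMD_KD replicate 3, where Dcn was 36.0% and Bgn 39.3% of the sum; in the other DMD_KD libraries Dcn was between 53.3% and 56.8%.

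**Figure D4:**
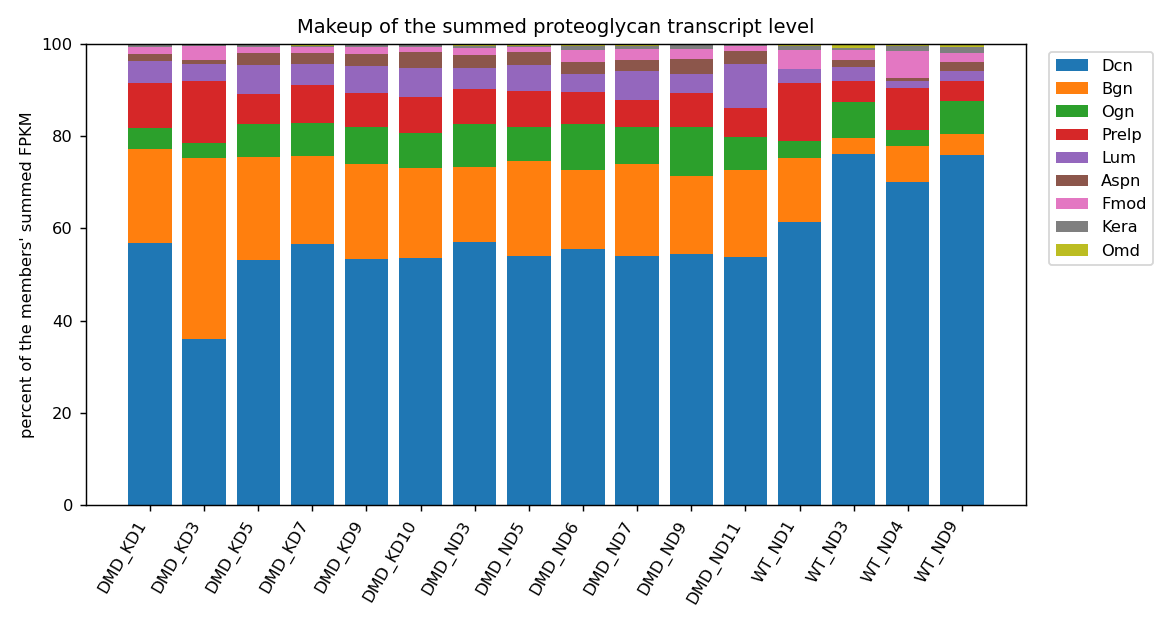
Share of each member in the summed FPKM of the 9 members (percent, stacked), per library, with DMD_KD left, DMD_ND in the middle and WT_ND right. Dcn fills more of the WT_ND bars, 61.4% to 76.2%, than of the mutant bars, and DMD_KD replicate 3 is the single library in which Bgn outweighs Dcn.

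Members differed in how their levels ran from library to library. Likeness was measured as the root mean square difference of log2(FPKM + 1) profiles over the 16 libraries, each centred on its own mean, so that a small value marks a gene that moved in step, group differences included. Ogn and Aspn were each other's nearest member, at 0.184, closer than any of the 9802 other protein-coding genes compared was to either. Among those 9802 genes, the nearest to Ogn were Clic2, Itgbl1 and Anxa1, at 0.39 to 0.448. The nearest to Aspn were Clic2, Anxa1 and Itgbl1, at 0.361 to 0.395. Dcn, which had Ogn as its nearest member at 0.424, lay nearer to Ogn than Anxa1 did. Clic2 encodes a chloride channel family protein and Anxa1 the phospholipid-binding protein annexin A1. Omd, which lies between Ogn and Aspn on chromosome 17, had Kera as its nearest member, at 0.412. Ecm2, the leucine-rich repeat gene that follows Aspn there (chr17:15120196-15152516), averaged 14.3 ± 5.30 FPKM in DMD_KD, 21.4 ± 5.92 FPKM in DMD_ND (SD, n = 6 each) and 2.53 ± 0.746 FPKM in WT_ND (SD, n = 4).

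Bgn ran closest to Aebp1 (0.205), Apoe (0.209) and Col1a2 (0.24), that is a collagen-binding matrix protein, apolipoprotein E and a chain of type I collagen. The nearest profile to Lum was Anxa1 (0.219), followed by Emp1 (0.299) and Ctsk, the collagen-cutting cathepsin K (0.311). Prelp ran with Serping1, the complement C1 inhibitor (0.178), Cpxm1 (0.2) and Mxra8 (0.203). For Dcn the nearest genes were Clic2 (0.234), Selenop (0.256) and Zfp36l2 (0.265). Omd was nearest to Adgrl4 (0.222), Sgce (0.232) and Prss23 (0.233), and Kera to Otulin (0.308), Sdr9c7 (0.31) and Scin (0.316).

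Fmod ran closest to Tnmd, which encodes tenomodulin, a membrane protein of tendon cells, at 0.247, ahead of Ecrg4 at 0.249 and C1qtnf1 at 0.309. Kera was its nearest member, at 0.369. Within DMD_ND, Fmod was 17.3, 13.6 and 18.9 FPKM in replicates 6, 7 and 9 and 9.82, 7.81 and 5.62 FPKM in replicates 3, 5 and 11. Kera was 6.25, 4.94 and 6.84 FPKM in replicates 6, 7 and 9 and 3.60, 2.80 and 1.88 FPKM in replicates 3, 5 and 11. Tnmd was 5.78, 5.87 and 10.04 FPKM in replicates 6, 7 and 9 and 3.42, 3.47 and 2.03 FPKM in replicates 3, 5 and 11. The same 3 libraries were thus the highest for all 3 genes. Tnmd is shown for its likeness to Fmod, and other tendon markers were ordered differently within DMD_ND. Mkx, a tendon transcription factor, was 0.5125, 0.326 and 0.478 FPKM in replicates 6, 7 and 9 and 0.625, 0.721 and 0.86 FPKM in replicates 3, 5 and 11. Tnc, the matrix protein tenascin C, was lowest in replicate 6, at 3.11 FPKM, and highest in replicate 5, at 6.06 FPKM. Scx, another tendon transcription factor, was highest in replicates 6 and 9, at 42.1 and 36.3 FPKM, with replicate 3 at 26.8 above replicate 7 at 25.6 FPKM. In DMD_KD, Tnmd ranged from 1.98 to 3.715 FPKM and in WT_ND from 0.474 to 1.24 FPKM. How far tendon tissue in the pieces bears on Fmod and Kera was not tested.

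**Figure D5:**
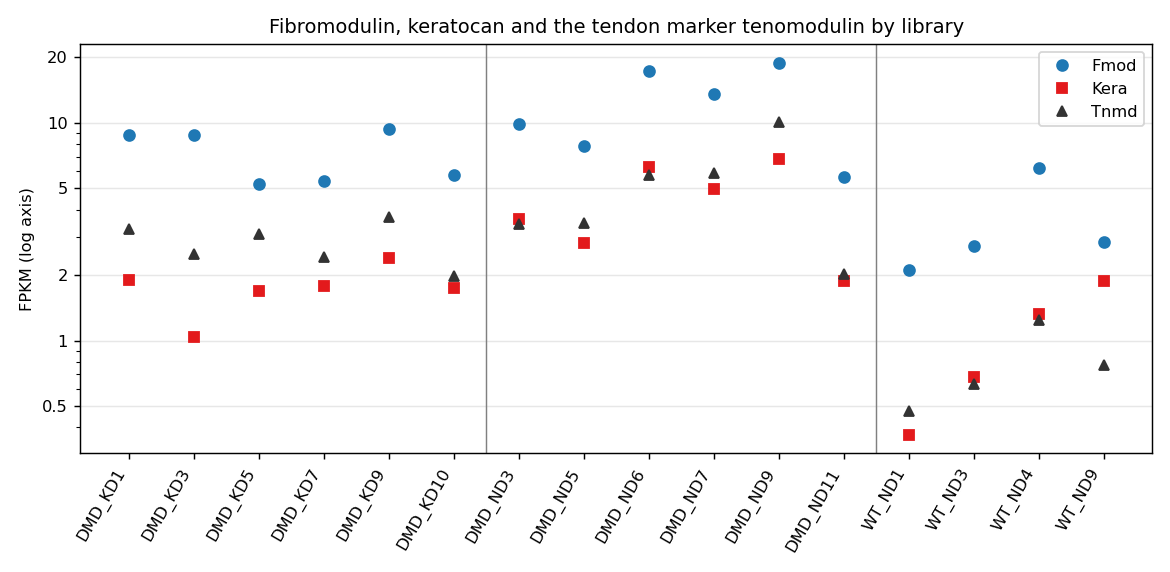
Level of Fmod (circles), Kera (squares) and Tnmd (triangles) in FPKM (log axis) in each of the 16 libraries, with lines between the 3 groups. DMD_ND replicates 6, 7 and 9 are the highest for each gene, and DMD_ND replicate 11 is the lowest DMD_ND library for each.

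Markers of several cell types also differed between genotypes, connective tissue and macrophage markers upward and muscle fibre markers downward. Over all tested genes, 31.5% were called higher in DMD_ND than in WT_ND and 34.3% lower. Of 11 tested fibro-adipogenic progenitor markers, the connective tissue cells of muscle, 10 were called higher in DMD_ND than in WT_ND; Lpl, called lower, was named after its values were seen. Their summed level was 866.6 to 1595 FPKM in DMD_KD and 1100 to 2013 FPKM in DMD_ND, against 266.0 to 415.3 FPKM in WT_ND, Gsn and Cxcl14 having the highest means. Tendon markers summed to 85.95 to 143.2 FPKM in DMD_KD and 112.9 to 236.0 FPKM in DMD_ND, against 18.7 to 47.1 FPKM in WT_ND, with 7 of 8 called higher in DMD_ND and Mkx not called. Macrophage markers, all 9 called higher in DMD_ND, summed to 166.9 to 286.6 FPKM in DMD_KD and 190.5 to 289.5 FPKM in DMD_ND, against 14.3 to 36.9 FPKM in WT_ND. Of the 11 cartilage and bone markers, 10 were below the filter and Matn1 was at 0 in every library. The 7 muscle fibre markers, all called lower in DMD_ND, summed to 27240 to 84880 FPKM in DMD_KD and 18720 to 34160 FPKM in DMD_ND, against 54840 to 101100 FPKM in WT_ND. Sums of 6 endothelial markers overlapped, at 46.65 to 58.99 FPKM in DMD_KD and 39.9 to 60.1 FPKM in DMD_ND, against 50.5 to 66.3 FPKM in WT_ND, with none called higher and 2 lower in DMD_ND. Mural markers, 5 of 7 called higher in DMD_ND, summed to 101.1 to 136.4 FPKM in DMD_KD and 96.45 to 130.5 FPKM in DMD_ND, against 64.4 to 102.8 FPKM in WT_ND. Schwann and perineurial markers, 1 of 5 called higher, summed to 12.4 to 19.6 FPKM in DMD_KD and 14.9 to 43.0 FPKM in DMD_ND, against 10.2 to 18.8 FPKM in WT_ND. What part cell makeup has in the members' levels was not tested.

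Between the diets, no marker of these lists was called. The 11 fibro-adipogenic markers had a median log2 difference of -0.26 for DMD_KD against DMD_ND, beside -0.01 over all tested genes. It was -0.37 for the 8 tendon, -1.03 for the 5 adipocyte and 0.46 for the 7 muscle fibre markers. The 5 Schwann and perineurial markers had -0.29, the 9 macrophage markers -0.16 and the 7 mural markers -0.11. The 4 satellite cell (muscle stem cell) markers had -0.13, the 6 endothelial markers 0.02 and the 1 tested cartilage and bone marker -0.53. Adipocyte markers summed to 15.4 to 74.6 FPKM in DMD_KD and 32.4 to 178.6 FPKM in DMD_ND, against 4.45 to 22.9 FPKM in WT_ND. DMD_ND replicates 6 and 9, which held the most Fmod and Kera, also held the most adipocyte marker RNA, at 137.4 and 178.6 FPKM.

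Of 8 further family members in the table, Ecm2 and Podnl1 passed the filter. Epyc, Optc, Nyx, Chad, Chadl and Tsku were below it, and Epyc, which follows Kera on chromosome 7, never passed 1 read per library. Podnl1, a podocan-like protein, was at 3.498 to 5.805 FPKM in DMD_KD and 3.40 to 8.01 FPKM in DMD_ND, against at most 2 reads in any WT_ND library. Ecm2 rose with a log2 fold change of 2.64 in DMD_ND over WT_ND (SE 0.298, limma adjusted p = 7.87e-07). With no filter on low values limma called 4 of the 8 higher in DMD_ND than in WT_ND, Ecm2, Podnl1, Tsku and Optc, and Chadl as well in DMD_KD against WT_ND; Tsku, Optc and Chadl were named after their values were seen. Tsku, which encodes the secreted protein tsukushi, was at 0.715 to 1.25 FPKM in DMD_KD and 0.7635 to 1.185 FPKM in DMD_ND, against 0.0908 to 0.1935 FPKM in WT_ND.

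Enzymes that build the sugar chains were counted by step, with no test of a difference between steps. Over all tested genes, 31.5% were called higher in DMD_ND than in WT_ND. Of 7 enzymes that start or trim the linker to the protein core, 1 was called higher in DMD_ND than in WT_ND, Pxylp1, a xylose phosphatase, with a log2 fold change of 1.10, and 6 were not called, among them the xylosyltransferases Xylt1 at -0.20 and Xylt2 at 0.13. Under scaling to an equal total per library, 6 of these 7 were called, as were 9284 of the 12119 tested genes. Of 9 tested enzymes that extend or sulfate chondroitin and dermatan chains, 8 were called higher and none lower, with a median log2 fold change of 0.95. Dse, which converts chondroitin to dermatan sulfate, averaged 2.91 ± 1.10 FPKM in DMD_KD, 4.15 ± 0.538 FPKM in DMD_ND (SD, n = 6 each) and 0.543 ± 0.266 FPKM in WT_ND (SD, n = 4). Its log2 fold change in DMD_ND over WT_ND was 1.75, and those of the dermatan sulfotransferase Chst14 and the chain-extending Chpf were 1.02 and 1.31. Of 4 tested keratan chain enzymes, 3 were called higher in DMD_ND, B3gnt7 at 1.05, B4galt4 at 0.69 and B4galt1 at 0.65, and Fut8 was not. Pxylp1, Chsy1, Csgalnact1, Chst14, Dse and B3gnt7 stayed under 1 FPKM in every WT_ND library. Like Aspn, Kera and Omd, they entered the test through the mutant groups, which leans these counts upward.

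Collagens that the family binds rose with it. All 6 tested fibrillar collagen genes were called higher in DMD_ND than in WT_ND, with a median log2 fold change of 3.30. Over all tested genes, 31.5% were called higher and 65.7% either way. Col1a1, with a log2 fold change of 4.32, averaged 264.7 ± 41.7 FPKM in DMD_KD, 335.0 ± 67.2 FPKM in DMD_ND (SD, n = 6 each) and 16.2 ± 5.11 FPKM in WT_ND (SD, n = 4). Col1a2 and Col3a1 had log2 fold changes of 3.91 and 3.92. Of 10 other matrix partners, all were called higher, with a median of 2.93, Col14a1 at 3.30 and the type VI collagen genes Col6a1, Col6a2 and Col6a3 at 2.98, 2.92 and 2.93. All 8 tested proteases and their helpers that cut these proteoglycans or procollagens were called higher, Mmp14 at 3.33, Mmp2 at 3.23 and the procollagen C-proteinase enhancer Pcolce at 2.997.

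Growth factor and receptor genes were mixed, and their counts stand beside 31.5% of all tested genes called higher and 65.7% either way. In the TGF-beta list, 7 of 10 genes were called higher in DMD_ND than in WT_ND. Among them were Tgfb1 at a log2 fold change of 2.38, its receptor Tgfbr2 at 1.66 and Ltbp2, a latent TGF-beta binding protein by name, at 1.17. The 1 called lower, Mstn, the muscle growth inhibitor myostatin, was named after its values were seen and had -1.75. Of 10 tested receptors reported to bind decorin, biglycan or lumican, 7 were called higher, with Cd14 at 2.88, Cd44 at 2.63 and Lrp1 at 1.99; Lrp6, Met and Kdr, named after their values were seen, were called lower at -1.01, -0.66 and -0.59. Of 13 tested proteoglycans outside the family, 9 were called higher, Sdc2 at 2.003, Spock2 at 1.59 and Cspg4 at 1.04 with the smallest p-values, and Sdc3, named after its values were seen, was called lower at -0.42. No gene of any of these lists was called between DMD_KD and DMD_ND. Set against WT_ND, DMD_KD had 7 of the 9 chondroitin and dermatan enzymes, all 6 fibrillar collagens, all 10 matrix partners and all 8 proteases called higher. In that comparison 27.3% of all tested genes were called higher.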

How the data were processed

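Poly-A RNA of frozen tibialis anterior was sequenced, per the labels' protocols. Reads were aligned and counted with HISAT2 2.0.5 and featureCounts 1.5.0-p3 on mRatBN7.2, per the submitters' processing notes; the sources used here give neither the annotation release nor how strand and multiply matching reads were handled. The deposited values are FPKM. Multiplied by gene length they gave whole reads for 100% of values (tolerance 0.05), and their scaling matched median-of-ratios size factors. Such scaling holds the typical gene level between libraries, so fold changes are relative to it.

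From these values, log2(FPKM + 1) was tested with limma 3.58.1 in R 4.3.3 (eBayes with trend and robust options) over the 12119 genes that reached 1 FPKM in 4 or more libraries, in 1 model of group means over all 16 libraries. P-values are two-sided, with Benjamini-Hochberg adjustment over all tested genes. The test was tried on simulated data. Members and lists were chosen with earlier results of these data known, and lists are given as counts with no set test. Genes under 1 FPKM in every WT_ND library could enter the test only through the mutant groups, which leans list counts upward. Besides the members, the text names for each member the 3 genes with the most similar profile, for each list the 3 with the smallest p for DMD_ND against WT_ND plus the gene of largest fold change among those called, and the most abundant markers. Promoter windows come from RefSeq (GRCr8); the table used holds no protein sequences, so none is printed.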

Additional observations from a re-analysis of the deposited data

Results flagged for a closer look

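In 2 of 27 sets of a member's values in a group, 1 library stood apart from the rest by Dixon's test at the 95% level, where chance alone gives about 1 in 20. Prelp was 9.815 FPKM in WT_ND replicate 4, against 6.12 to 6.385 FPKM in the other 3 WT_ND libraries, a gap that makes up 0.928 of the group's range (critical value 0.829). Omd was 0.706 FPKM in DMD_ND replicate 11, against 2.22 to 2.67 FPKM in the other 5 DMD_ND libraries, a gap that makes up 0.769 of the range (critical value 0.625). DMD_ND replicate 11 was also the lowest DMD_ND library for 8 of the 9 members and the highest for Lum.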

How the results depend on the processing

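Between DMD_ND and WT_ND all 9 members stayed called higher under every alternative that tested them; requiring a mean of at least 5 FPKM left 7 members in the test, all called. Between DMD_KD and DMD_ND 0 members were called in every alternative run, and the members' estimates stayed negative. Between DMD_KD and WT_ND the number called was 7 as deposited, 9 under TPM scaling and 6 to 8 when 1 library was left out. TPM scaling also moved the median of all tested genes by 0.62 on the log2 scale, to 0.56. Over all genes it gave 6930 calls higher and 573 lower, beside 3304 and 3764 as deposited. Fmod lost its call without WT_ND replicate 1 (0.78). Kera was called under TPM scaling (1.04) and with the replicate block (0.58), and Omd under TPM scaling (0.95) and without DMD_KD replicate 3 (0.60). No member changed direction. Over all genes, the filter at a mean of 5 FPKM gave 4361 calls for DMD_ND against WT_ND and 3950 for DMD_KD against WT_ND, with fewer genes tested (7967 and 7068 calls as deposited). The single call of DMD_KD against DMD_ND became 2 with only those groups in the fit, 93 with weights per library and 1 to 7 when 1 library was left out (7 without DMD_KD replicate 9 and 2 without DMD_ND replicate 7); the cause was not tested. Leaving out 1 library gave 7413 to 8495 calls for DMD_ND against WT_ND and 6351 to 7731 for DMD_KD against WT_ND. Of 240 list counts under other settings 25 moved by over 1.5 times, mostly where the filter changed how many genes were tested.

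Correlations of deviations from group means cannot settle whether replicate numbers pair the libraries. Same-numbered DMD_KD and DMD_ND libraries had correlations of 0.0858, 0.0163, 0.0188 and 0.23. Most of them correlated better with a library of another number than with that of their own. The 0.23 of replicate 9 was the highest value between the mutant groups for both its libraries. Same-numbered pairs with WT_ND ran from -0.656 for DMD_KD replicate 3 to 0.407 for DMD_KD replicate 9. With the replicate block, 9 members were called for DMD_ND against WT_ND, 0 for DMD_KD against DMD_ND and 8 for DMD_KD against WT_ND; over all genes the block gave 5852, 0 and 5190 calls. The planned edgeR and DESeq2 tests were not run, because the deposited table holds FPKM. Limma with voom weights on the recovered reads was chosen in their place after seeing the data, and called 9, 0 and 7 members. Over all genes it gave 7802, 1 and 6920 calls. Levels of Omd, Kera and, in WT_ND, Aspn rest on few reads.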
